A study of Mus musculus with 15 samples.

Results

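Transcript levels after knockdown of Rpl23 were compared with those after a non-targeting siRNA in mouse embryonic stem cells. The comparison took 6 of the 15 libraries of the series, 3 from cells transfected with an siRNA against Rpl23 (siRpl23) and 3 from cells given the non-targeting siRNA (siNT). The other 9 libraries came from siRNAs against Rpl11, Rpl14 or Rpl18 (siRpl11, siRpl14 and siRpl18, 3 libraries each) and served for the comparison between knockdowns. All groups were E14 cells, an established stem cell line of otherwise unaltered genotype as far as the labels say, grown on gelatin in medium with serum and leukemia inhibitory factor (LIF). All received their siRNA with the DharmaFECT reagent. The sample titles give 48 h and the treatment protocol gives harvest after 3 days, and which of them applies was not settled. Each siRNA is named only by its target, so whether it was a single sequence or a pool is not given in the sources used here. Genes were taken up where they had at least 1 FPKM (fragments scaled to transcript length and library size) in at least 2 of the 6 libraries, which 12225 of the 24819 listed genes did. Rab32 and Tarm1 lay just inside this limit, with 1.001 and 1.002 FPKM in their second highest library, and Krtap4-13 and Sorcs2 just outside it, with 0.9997 and 0.9996 FPKM. A total of 394 genes entered with no siNT library at 1 FPKM, and 307 with no siRpl23 library at 1 FPKM, so that these could hardly differ in the other direction.

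Rpl23 is a protein of the large (60S) subunit of the ribosome. Ribosomal proteins are made in step with ribosomal RNA and assembled in the nucleolus. When assembly fails, free Rpl5, Rpl11 and Rpl23 can each bind Mdm2, the ubiquitin ligase that marks the tumour suppressor p53 (gene Trp53) for degradation, and p53 then accumulates and switches on genes of cell cycle arrest, cell death and DNA repair, Mdm2 itself among them. Mouse embryonic stem cells hold the naive state of pluripotency under LIF, and a small share of them passes through a state that expresses genes of the 2-cell embryo.

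The libraries stood in separately normalized tables. Replicates 1 and 2 of all groups shared the first table and gave the tests, with n = 2 in each group. The remaining library of each group, called the third library here, stood in the second table. Its values are printed in the last place of each set, and they enter no mean or test. Values are compared within a table only, since levels set across the tables also carry the difference in normalization. Replicates 1 and 2 correlated across genes with r of 0.994 in siRpl23 and 0.996 in siNT. FPKM carries no read total, and the absolute depth is unknown. The steps of low values put the depth of the libraries at 0.698 to 1.40 times that of siNT replicate 1 in the first table and at 1.00 to 1.30 times that of the third siNT library in the second. Differences are given on the log2(FPKM + 1) scale, siRpl23 minus siNT, with the standard error from limma, and this scale understates changes of genes with low FPKM. A gene was called where limma's Benjamini-Hochberg adjusted p over all 12225 genes was under 0.05. Whether replicates were grown and transfected separately is not stated, so each p-value is set against the scatter of these libraries alone, and that scatter may be technical. As a check of the cell type, all 11 stem cell markers were measured, and 3 rose and 7 fell, with summed levels of 5589, 5843 and 6634 FPKM in siRpl23, against 7995, 8385 and 7395 FPKM in siNT. Of 13 fibroblast and feeder markers 4 were above the limit, their 13-gene sum was 13.2, 13.4 and 15.5 FPKM in siRpl23, against 18.2, 18.5 and 21.5 FPKM in siNT, and Col3a1, Dcn, Lum and Postn were listed at 0 in all 6 libraries. Their part in the results was not tested. Genes named outside the naming rule, where they make up a small count or a list's exception, were chosen after their values were seen.

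The targeted transcript checked the labels. Rpl23 had 412, 436 and 320.1 FPKM in siRpl23, against 1126, 1211 and 1028 FPKM in siNT (log2 difference -1.46 ± 0.07, adjusted p = 1.22e-07). All 3 siRpl23 libraries lay below all 3 siNT libraries, the ratio to siNT was 0.363 in the first table, and the difference in the third libraries was -1.68. The targets of the other knockdowns were also compared in these cells. Rpl11 had 743, 783 and 832 FPKM in siRpl23 and 702, 772 and 854 FPKM in siNT (0.05), Rpl14 differed by 0.09 and Rpl18 by 0.02, and none of these differences passed the threshold. Leaving out siNT replicate 1 turned the differences of Rpl11 and Rpl18 to -0.02 and -0.05, and quantile normalization made those of Rpl11 (0.22) and Rpl14 (0.23) pass.

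Rpl23 knockdown moved a large part of the measured transcriptome. Of the 12225 genes 8031 were called (65.7%), and 4233 rose (34.6%) and 3798 fell (31.1%). The counts of gene lists given below are to be set beside these shares. A total of 11548 genes passed the limit in siNT alone, with at least 1 FPKM in at least 2 siNT libraries, and of these 3749 rose and 3792 fell. Most changes were small, since 621 genes rose by 2-fold or more (5.08%) and 252 fell by 2-fold or more (2.06%), and the median over all genes was 0.02. Quantile normalization turned the balance to 3805 genes that rose and 4369 that fell. Both siRpl23 libraries of the first table lay above both siNT libraries for 5212 genes (42.6%) and below both for 4872 (39.9%). In the third libraries, which entered no test, 3770 of the 4233 genes that rose (89.06%) and 3375 of the 3798 that fell (88.86%) differed in the same direction. The other called genes did not. At 2-fold or more these were 617 of the 621 genes that rose and 243 of the 252 that fell. Of the genes that had not passed, 61.3% had the same direction. These are levels in bulk RNA, where fewer cells of a type and less RNA per cell cannot be told apart.

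The 12 largest rises, among genes with a mean of at least 5 FPKM in either group and the same sign in the third libraries, are given here. Fgfbp1, a secreted protein that carries fibroblast growth factors, had 90.5, 87.03 and 81.4 FPKM in siRpl23, against 2.07, 3.902 and 6.78 FPKM in siNT (log2 difference 4.53 ± 0.16, adjusted p = 1.50e-08). Perp, a membrane protein of desmosomes and a p53 target in cell death, had 196, 186 and 193 FPKM in siRpl23, against 9.03, 9.53 and 6.63 FPKM in siNT (log2 difference 4.22 ± 0.06, adjusted p = 9.53e-11). Cyr61, a matrix protein induced by the coactivator YAP, had 72.1, 69.8 and 79.8 FPKM in siRpl23, against 3.84, 4.35 and 5.62 FPKM in siNT (log2 difference 3.82 ± 0.06, adjusted p = 1.38e-10). For each of these genes every siRpl23 library was more than 10 times as high as every siNT library of the same table. Next came the neuronal transcription factor Neurod1 (3.62), the carboxypeptidase Cpz (3.57), the death receptor Fas (3.49), the homeobox factor Nkx2-9 (3.49) and the matrix protein Matn1 (3.45). The leukotriene receptor Ltb4r2 (3.41), the phospholipase Plcd4 (3.32), the CDK inhibitor Cdkn2b (3.31) and the peptide transporter Tap1 (3.31) completed them. Cpz, Fas, Matn1, Ltb4r2, Plcd4 and Cdkn2b reached 1 FPKM in fewer than 2 siNT libraries. These genes had entered through the siRpl23 libraries and could hardly have fallen. Fas was close to undetected in control cells, with 13.5, 11.1 and 8.71 FPKM in siRpl23 and 0.194, 0.166 and 0.172 FPKM in siNT.

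The 12 largest falls were led by genes of the amino acid and stress response and of hypoxia. Nupr1, a small stress-induced chromatin protein, had 6.27, 8.16 and 9.15 FPKM in siRpl23, against 56.6, 57.6 and 41.9 FPKM in siNT (log2 difference -2.83 ± 0.13, adjusted p = 8.36e-08). Vegfa, the angiogenic growth factor, had 5.19, 6.44 and 4.704 FPKM in siRpl23, against 29.8, 27.1 and 20.01 FPKM in siNT (log2 difference -2.12 ± 0.10, adjusted p = 1.05e-07). Pycr1, the last enzyme of proline synthesis, had 4.16, 4.02 and 2.802 FPKM in siRpl23, against 21.7, 20.2 and 9.01 FPKM in siNT (log2 difference -2.11 ± 0.09, adjusted p = 5.21e-08). In none of these genes did the groups overlap. Inhbb, a subunit of activins and inhibins, differed by -1.96, the glutathione-degrading enzyme Chac1 by -1.93, Phgdh, the first enzyme of serine synthesis, by -1.88, and the mitochondrial enzyme Pck2 by -1.77. Stra8, which starts meiosis in germ cells, had 5.46, 6.07 and 1.102 FPKM in siRpl23 and 21.7, 21.1 and 3.57 FPKM in siNT (-1.73). The tubulin Tuba3a (-1.67), the glycolytic enzyme Pfkp (-1.66), LOC105246506 (-1.63) and Gchfr, a regulator of GTP cyclohydrolase (-1.62), made up the rest.

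**Figure D1:**
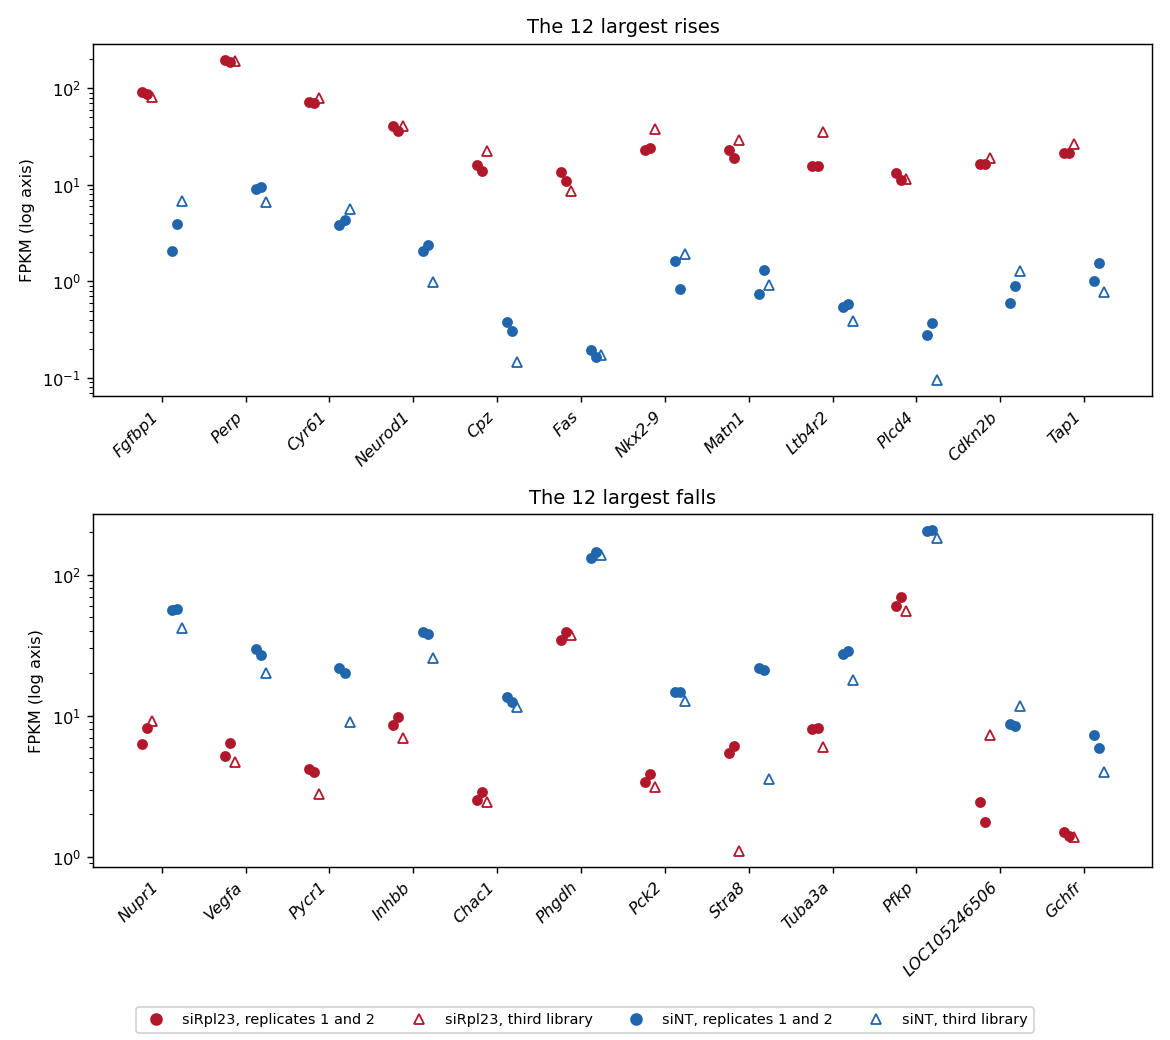
FPKM (log axis) of the 12 genes with the largest rises (top) and the 12 with the largest falls (bottom) in the 3 siRpl23 libraries (red, left of each pair) and the 3 siNT libraries (blue); filled circles are replicates 1 and 2 and open triangles are the third library, which was normalized in another table. Fgfbp1 stands at 81.4 to 90.5 FPKM in siRpl23 and at 2.07 to 6.78 FPKM in siNT, and Nupr1 at 6.27 to 9.15 FPKM in siRpl23 and at 41.9 to 57.6 FPKM in siNT.

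**Figure D2:**
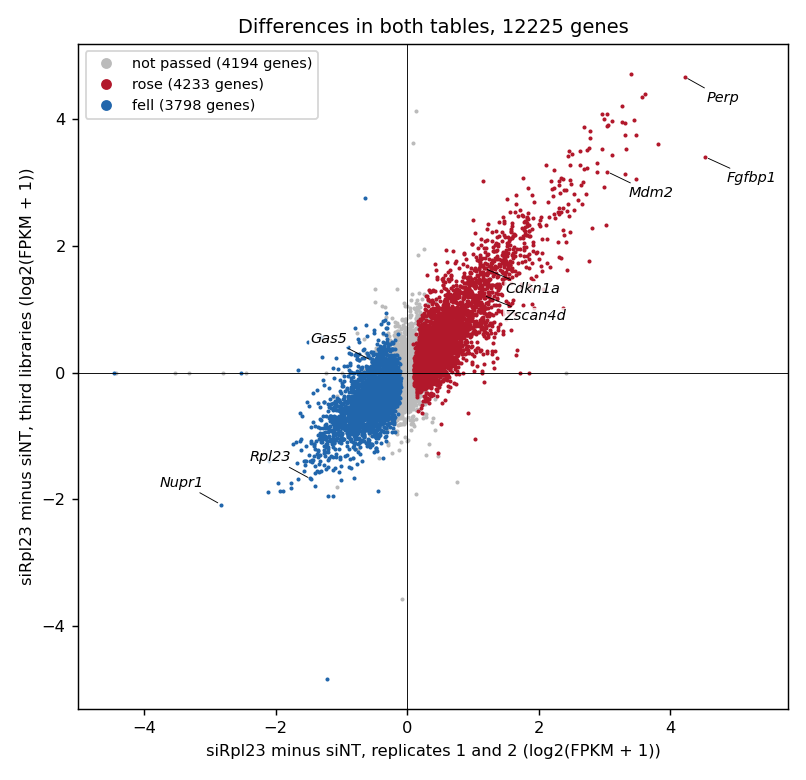
Difference between siRpl23 and siNT (log2(FPKM + 1)) in replicates 1 and 2 of the first table (x axis) and in the third libraries of the second table (y axis), 1 point per gene, coloured by the call in the first table. Perp lies at 4.22 and 4.67, Nupr1 at -2.83 and -2.08, and Gas5 fell by 0.54 in the first table but stood at 0.19 in the second; 21 genes lie on the zero line because they are listed at 0 in both libraries of the second table.

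Genes of the p53 network rose together in siRpl23. Trp53 itself had 324, 309 and 375 FPKM in siRpl23, against 189, 182 and 223 FPKM in siNT (log2 difference 0.77 ± 0.04, adjusted p = 1.99e-07), a ratio of 1.71. Mdm2, which encodes the p53 ubiquitin ligase and is a p53 target, had 362, 338 and 335 FPKM in siRpl23, against 41.97, 41.2 and 36.3 FPKM in siNT (log2 difference 3.04 ± 0.04, adjusted p = 9.53e-11), a ratio of 8.40 in the first table. Every siRpl23 library was above every siNT library for both genes. Of 14 listed network regulators 11 were measured, 10 rose and 0 fell, with a median of 1.08 in the first table and 1.34 in the third libraries. Trp73, a relative of p53, had 14.9, 14.3 and 14.8 FPKM in siRpl23 and 1.87, 1.51 and 1.67 FPKM in siNT, and Trp53inp1, a nuclear cofactor of p53, had 170.4, 158 and 227 FPKM in siRpl23 and 33.96, 34.6 and 29.1 FPKM in siNT (2.54 and 2.23). Ccng1, a cyclin that acts with a phosphatase on Mdm2, had 189.8, 188 and 202 FPKM in siRpl23 and 62.8, 66.9 and 45.1 FPKM in siNT (1.53). Cdkn2a, whose Arf product holds Mdm2 back, had 8.98, 9.404 and 10.5 FPKM in siRpl23 and 2.37, 3.41 and 3.54 FPKM in siNT (1.40). The member that did not pass was Mdm4, a partner of Mdm2 (-0.15). With quantile normalization 1 of the 11 fell.

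Of 19 p53 targets in cell cycle arrest 16 rose and 2 fell (median 1.17, and 1.65 in the third libraries). Cdkn1a, the CDK inhibitor p21, had 121, 109 and 136 FPKM in siRpl23, against 52.5, 48.3 and 42.7 FPKM in siNT (log2 difference 1.17 ± 0.06, adjusted p = 1.78e-07). Plk2, a kinase of the polo family, had 123, 117 and 91.9 FPKM in siRpl23, against 11.8, 11.4 and 4.97 FPKM in siNT (log2 difference 3.27 ± 0.04, adjusted p = 9.53e-11), which was a much larger difference than that of Cdkn1a. The receptor phosphatase Ptprv (2.96), the Akt inhibitor Phlda3 (2.18), the transcriptional corepressor Btg2 (2.01) and Sfn, the 14-3-3 protein sigma (1.86), also rose. Those that fell were the growth factor Gdf15 (-0.45) and the stress regulator Sesn1 (-0.47). Gdf15 differed the other way in the third libraries (0.52).

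Of 21 measured p53 targets in cell death 17 rose and 2 fell (median 0.86, and 1.29 in the third libraries), and 2 of the 21, Fas and Tnfrsf23, had entered through the siRpl23 libraries. Of the 19 that passed the limit in siNT alone 15 rose. Perp and Fas led them. Apaf1, which activates caspases with cytochrome c, had 28.2, 26.7 and 27.6 FPKM in siRpl23 and 9.08, 8.204 and 5.63 FPKM in siNT (1.56). The receptor Eda2r had 44.1, 44.3 and 68.5 FPKM in siRpl23 and 15.2, 16.05 and 18.2 FPKM in siNT (1.44). Bax, which opens the mitochondrial outer membrane, had 284, 286 and 395 FPKM in siRpl23 and 207, 226 and 281 FPKM in siNT (0.40), a smaller difference with groups that still did not overlap within a table. The members that fell were Bcl2l11, which promotes death, and the decoy receptor Tnfrsf22 (-0.24 and -0.32). Over the whole Bcl2 family 8 of 14 measured members rose and 5 fell. The protective Bcl2l1 had 55.5, 53.4 and 53.5 FPKM in siRpl23 and 20.9, 22.7 and 23.4 FPKM in siNT (1.28), and the death-promoting Pmaip1 rose as well (0.91). Bmf and Hrk, which also promote death, fell (-1.10 and -0.80), and Hrk had entered through the siNT libraries.

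Among p53 targets in DNA repair and metabolism the changes ran both ways, with 15 of 25 measured members up and 7 down (median 0.88). Tap1, which carries peptides to MHC class I, had 21.5, 21.2 and 26.2 FPKM in siRpl23 and 1.01, 1.53 and 0.777 FPKM in siNT (3.31). The small GTPase Rap2b (2.33), the cytochrome c oxidase assembly factor Sco2 (1.90) and the epoxide hydrolase Ephx1 (1.59) followed. Of 6 measured CDK inhibitors 4 rose and 0 fell, and 3 of the 5 that passed the limit in siNT alone rose. This list is not separate from those above, since Cdkn1a and Cdkn2a, already given, are among the 4 that rose. Cdkn2b, which entered through the siRpl23 libraries, had 16.3, 16.3 and 19.1 FPKM in siRpl23 and 0.5998, 0.898 and 1.28 FPKM in siNT, and Cdkn1c differed by 0.44.

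Promoter sequence was available for 9590 of the 12225 genes, as 300-base windows from 250 bases before to 50 after the annotated start (RefSeq, build GRCm38.p6, which is not the mm9 build of the expression tables). The motif of a p53 decamer, of which a full site holds a pair, was found on either strand in 8.27% of all windows. It was present in 5 of 9 network regulators, 4 of 17 arrest targets, 4 of 16 death targets and 2 of 20 repair and metabolism targets, and 14 of these 15 genes rose. Whether or not a match was present, 10 of 11, 16 of 19, 17 of 21 and 15 of 25 measured members of these lists rose. Decamers are short, and 312 of the 793 genes with a match rose and 220 fell. A match to a full site, with its decamers at most 13 bases apart, occurred in 6 of the 9590 windows (0.0626%), and Cdkn1a was among them. These are matches to a sequence pattern, and binding of p53 to them was not tested. The 250 bases before the start are shown for the network regulators Mdm2 (chr10:117710759-117711008, minus strand) and Ccng1 (chr11:40755287-40755536, minus strand) and for Cdkn1a (chr17:29090729-29090978, plus strand), since these are well-known p53 targets that rose here; capitals mark the decamer in Mdm2 and Ccng1 and the full site with its spacer in Cdkn1a.
Mdm2: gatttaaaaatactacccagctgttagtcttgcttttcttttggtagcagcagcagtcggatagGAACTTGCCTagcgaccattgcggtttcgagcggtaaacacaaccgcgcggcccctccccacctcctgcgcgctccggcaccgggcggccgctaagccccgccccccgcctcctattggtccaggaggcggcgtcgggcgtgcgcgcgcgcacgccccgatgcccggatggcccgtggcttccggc
Ccng1: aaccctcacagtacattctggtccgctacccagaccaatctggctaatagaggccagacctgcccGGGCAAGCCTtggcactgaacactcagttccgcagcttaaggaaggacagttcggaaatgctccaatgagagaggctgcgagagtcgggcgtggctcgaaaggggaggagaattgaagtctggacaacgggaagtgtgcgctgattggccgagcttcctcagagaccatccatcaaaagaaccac
Cdkn1a: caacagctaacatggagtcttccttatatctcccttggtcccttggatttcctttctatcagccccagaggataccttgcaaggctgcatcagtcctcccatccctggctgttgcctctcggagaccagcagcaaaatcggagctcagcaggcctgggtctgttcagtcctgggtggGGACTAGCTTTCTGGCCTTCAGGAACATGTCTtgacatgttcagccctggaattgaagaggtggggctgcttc

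Genes of naive pluripotency fell in most cases. Of 21 measured genes 15 fell and 3 rose (median -0.54, and -0.43 in the third libraries). Fgf4, the growth factor that drives exit from the naive state, had 57.8, 59.7 and 48.6 FPKM in siRpl23, against 137, 136 and 98.9 FPKM in siNT (log2 difference -1.20 ± 0.04, adjusted p = 1.81e-08). Nanog had 249, 259 and 180.3 FPKM in siRpl23, against 431, 446 and 293 FPKM in siNT (log2 difference -0.79 ± 0.04, adjusted p = 2.18e-07). Zfp42, also known as Rex1, had 347, 369 and 328 FPKM in siRpl23, against 591, 643 and 510.1 FPKM in siNT (log2 difference -0.78 ± 0.06, adjusted p = 2.32e-06). In each of these the lowest siNT library stood above the highest siRpl23 library of its own table. Tcl1, a coactivator of Akt, and Tfcp2l1, a transcription factor of the LIF pathway, also fell (-1.12 and -0.91). The 3 members that rose were Stat3, Fbxo15 and Tdh (0.56, 0.30 and 0.26).

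The core factors of pluripotency were mixed, with 8 of 16 measured members up and 5 down (median 0.10). Pou5f1, which encodes Oct4, had 762, 782 and 1079.6 FPKM in siRpl23, against 919, 977 and 1283 FPKM in siNT (log2 difference -0.30 ± 0.06, adjusted p = 0.0014), a call that quantile normalization ended (-0.05). Sox2 had 251, 250.3 and 318 FPKM in siRpl23, against 220.1, 215 and 292 FPKM in siNT (log2 difference 0.20 ± 0.04, adjusted p = 0.00117). The difference in Sox2 was small beside that in Nanog and went the other way. Dppa2, which with Dppa4 activates genes of the early embryo, rose (0.73), as did the RNA-binding protein Lin28a (0.63) and the zinc finger factor Sall4 (0.60), whereas the Nodal coreceptor Tdgf1 fell (-0.84). In the third libraries these differences were 0.32 in Dppa2, 0.07 in Lin28a, 0.30 in Sall4 and -0.46 in Tdgf1.

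Genes of formative and primed pluripotency rose in 13 of 21 measured cases and fell in 4, with a median of 0.48 in the first table and of -0.095 in the third libraries. Of the 19 that passed the limit in siNT alone 11 rose. Otx2, a transcription factor of the formative state, had 36.1, 35.3 and 28.9 FPKM in siRpl23, against 9.03, 8.34 and 13.7 FPKM in siNT (log2 difference 1.92 ± 0.05, adjusted p = 1.37e-09). Cldn6, a tight junction protein, had 42.4, 44.6 and 41.7 FPKM in siRpl23, against 10.8, 11.8 and 8.03 FPKM in siNT (log2 difference 1.86 ± 0.07, adjusted p = 1.69e-08). The ligand Wnt8a, which entered through the siRpl23 libraries, had 2.65, 2.45 and 1.49 FPKM in siRpl23 and 0.194, 0.138 and 0.132 FPKM in siNT, and Lefty1, an inhibitor of Nodal, had 98.4, 103 and 141 FPKM in siRpl23 and 33.2, 33.3 and 66.6 FPKM in siNT (1.61 and 1.57). The difference in Otx2 was 1.02 in the third libraries. Fgf15, a fibroblast growth factor, fell (-0.72). The count of members that fell was 2 when any single siRpl23 or siNT library was left out. Among genes of Wnt and Nodal signalling 13 of 18 measured rose and 5 fell (median 0.92), 5 of the 18 having entered through the siRpl23 libraries. Of the 13 that passed the limit in siNT alone 8 rose. The ligand Wnt3 had 4.75, 4.11 and 5.18 FPKM in siRpl23 and 0.0501, 0.0949 and 0.0613 FPKM in siNT, and the Wnt target Sp5 had 3.44, 2.97 and 4.94 FPKM in siRpl23 and 0.329, 0.5296 and 0.757 FPKM in siNT. Both Wnt3 and Sp5 had entered through the siRpl23 libraries and could hardly have fallen.

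Genes of the 2-cell-like state rose. Zscan4d, of the Zscan4 cluster that marks this state, had 55.7, 48.7 and 12.6 FPKM in siRpl23, against 21.9, 23.9 and 4.82 FPKM in siNT (log2 difference 1.15 ± 0.08, adjusted p = 1.59e-06). Zfp352, which encodes a zinc finger protein and is active in the 2-cell embryo, had 4.84, 3.59 and 1.21 FPKM in siRpl23, against 0.792, 0.848 and 0.228 FPKM in siNT (log2 difference 1.51 ± 0.13, adjusted p = 4.30e-06). In each table the siRpl23 libraries were above the siNT libraries. Dux, the transcription factor that starts this program, was at the edge of detection with 1.38, 1.57 and 0.866 FPKM in siRpl23 and 0.337, 0.393 and 0 FPKM in siNT (0.86). Of 61 genes on this list 42 were in the tables and 31 were measured; 29 rose and 1 fell, with a median of 1.19 and of 1.13 in the third libraries. Through the siRpl23 libraries alone 8 of the 31 had entered, Dux and Zfp352 among them, and of the 23 that passed the limit in siNT alone 22 rose. Tdpoz3 (2.76), Zfp750 (2.41), Tdpoz4 (2.37) and Usp17lb (2.30) had the largest differences, and of these Tdpoz3 and Tdpoz4 had entered through the siRpl23 libraries. The exception was Pramel6 (-0.90). Members of the Zscan4, Usp17l and Tdpoz families are near-identical copies, so their reads could be split or shared between them, and the values of single copies are uncertain.

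Known regulators of that state moved less. Of 30 measured genes 8 rose and 15 fell, with a median of -0.08. Dppa2 and Nelfa, which promote it, rose, with 77.96, 73.4 and 47.6 FPKM in siRpl23 and 46.2, 46.5 and 30.7 FPKM in siNT for Nelfa (0.69). Ehmt2, a histone H3 lysine methyltransferase that represses it, had 30.9, 29.04 and 35.1 FPKM in siRpl23 and 45.9, 44.2 and 53.4 FPKM in siNT (-0.57). The number that rose was 4 under quantile normalization and 5 without siRpl23 replicate 1.

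Trophectoderm genes, which mark the outer layer of the blastocyst, rose in 14 of 21 measured cases and fell in 5 (median 0.59, and 0.75 in the third libraries); 7 of the 21 had entered through the siRpl23 libraries, and of the 14 that passed in siNT alone 7 rose and 5 fell. The 23 listed genes summed to 242, 235 and 311 FPKM in siRpl23, against 186, 187 and 288 FPKM in siNT, and none was listed at 0 in all 6 libraries. Gata3, a transcription factor of this lineage, had 4.204, 4.26 and 3.59 FPKM in siRpl23, against 0.0381, 0.0272 and 0.311 FPKM in siNT (log2 difference 2.34 ± 0.09, adjusted p = 3.23e-08). Krt8, a keratin of simple epithelia, had 20.9, 19.8 and 28.3 FPKM in siRpl23, against 4.402, 5.46 and 5.603 FPKM in siNT (log2 difference 1.85 ± 0.11, adjusted p = 3.82e-07). Gata3 was nearly absent from control cells, whereas Krt8 was not. Hand1, of trophoblast and mesoderm, had 4.71, 4.27 and 7.24 FPKM in siRpl23 and 0.377, 0.285 and 0.4998 FPKM in siNT, and Krt7 had 3.84, 3.76 and 4.79 FPKM in siRpl23 and 0.369, 0.333 and 0.0577 FPKM in siNT (2.04 and 1.83). Gata3, Hand1 and Krt7 are among the genes that entered through the siRpl23 libraries. The members that fell were Tead4, a transcription factor of this lineage (-0.84), the ligand Bmp4 (-0.79), the lectin Lgals3 (-0.57), Cited2 (-0.37) and Esx1 (-0.33). Esx1 had entered through the siNT libraries. Bmp4 had 15.8, 17.99 and 23.4 FPKM in siRpl23 and 29.99, 29.8 and 51.7 FPKM in siNT, so that its groups did not overlap in either table. With a limit of 5 FPKM on the mean, 6 of this list rose and 3 fell.

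Primitive endoderm genes rose in 9 of 12 measured cases and fell in 2 (median 0.49), with 5 of the 12 taken in through the siRpl23 libraries, and of the 7 that passed in siNT alone 4 rose and 2 fell. The 20 genes in the tables summed to 234, 226 and 224 FPKM in siRpl23, against 185, 180.0 and 193 FPKM in siNT. Fst, an activin antagonist, had 3.15, 2.89 and 3.06 FPKM in siRpl23 and 0.332, 0.545 and 0.442 FPKM in siNT, and Gata4, a transcription factor of this lineage, had 1.96, 2.303 and 1.61 FPKM in siRpl23 and 0.735, 0.712 and 0.5500 FPKM in siNT (1.49 and 0.86). Fst and Gata4 are among the genes that had entered through the siRpl23 libraries and could hardly have fallen. The matrix genes Sparc and Lamb1 were well expressed in both groups and rose by 0.69 and 0.68. Other laminin chains of this list fell, with 55.2, 52.5 and 47.6 FPKM in siRpl23 and 70.99, 67.8 and 67.2 FPKM in siNT for Lamc1 (-0.36) and 6.39, 6.21 and 3.84 FPKM in siRpl23 and 9.93, 9.38 and 5.97 FPKM in siNT for Lama1 (-0.55). Of the neural genes 5 of 12 measured rose and 4 fell, and of the 10 that passed the limit in siNT alone 3 rose. The 23 listed genes summed to 290.0, 299 and 266 FPKM in siRpl23, against 373, 400.1 and 301 FPKM in siNT, and none was listed at 0 in all 6 libraries. Neurod1 had 40.8, 36.3 and 41.04 FPKM in siRpl23 and 2.05, 2.39 and 0.983 FPKM in siNT, the homeobox factor Nkx2-2 had 1.97, 1.95 and 2.62 FPKM in siRpl23 and 0.0539, 0.0543 and 0 FPKM in siNT and the intermediate filament Nes had 6.57, 6.23 and 5.77 FPKM in siRpl23 and 2.19, 2.15 and 3.37 FPKM in siNT. These 3 genes were higher in siRpl23 in both tables, but Nkx2-2 had entered through the siRpl23 libraries and could hardly have fallen. The most abundant neuronal genes went the other way. Stmn2, a microtubule regulator of neurons, had 147, 162 and 104 FPKM in siRpl23 and 276, 301 and 164 FPKM in siNT (-0.90), and the neuronal tubulin Tubb3 had 47.2, 46.5 and 54.4 FPKM in siRpl23 and 67.8, 72.1 and 98.6 FPKM in siNT (-0.57). The microtubule protein Map2 also fell (-0.22), the median of the list was 0.06, and the number that fell was 2 without siRpl23 replicate 2 or without siNT replicate 2.

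Several groups of surface and signalling genes also rose in part. Of 18 measured epithelial and junction genes 11 rose and 6 fell (median 0.37), and of the 16 that passed the limit in siNT alone 9 rose and 6 fell. Krt5, a keratin of basal epithelia that entered through the siRpl23 libraries, had 2.76, 2.54 and 3.697 FPKM in siRpl23 and 0.0197, 0.0839 and 0 FPKM in siNT (1.79). The tight junction protein Cldn3 had 1.14, 1.37 and 2.85 FPKM in siRpl23 and 3.27, 3.89 and 5.62 FPKM in siNT and fell (-1.02), as did the adhesion molecule Epcam (-0.44). Targets of YAP and TEAD, which read out cell contact and tension, rose in 12 of 17 measured cases and fell in 4 (median 0.72), and 9 of the 14 that passed in siNT alone rose. Ctgf, a secreted matrix protein, had 36.1, 34.2 and 37.9 FPKM in siRpl23 and 6.03, 5.41 and 11.7 FPKM in siNT, and Amotl2, an inhibitor of YAP, had 46.95, 43.8 and 53.9 FPKM in siRpl23 and 11.8, 11.4 and 20.98 FPKM in siNT (2.43 and 1.88). Fgfbp1 and Cyr61 from the largest rises belong to the same list, and Gadd45b, a member that fell, had 7.66, 7.43 and 6.78 FPKM in siRpl23 and 14.8, 11.9 and 11.7 FPKM in siNT (-0.74). Genes that respond to FGF and ERK signalling rose in 11 of 19 measured cases and fell in 4, and of the 17 that passed the limit in siNT alone 9 rose. The AP-1 factor Fosl1 (2.96), which entered through the siRpl23 libraries, and Phlda1 (2.31) rose, and Ier3 (-1.36) and Fgf4 itself fell.

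**Figure D3:**
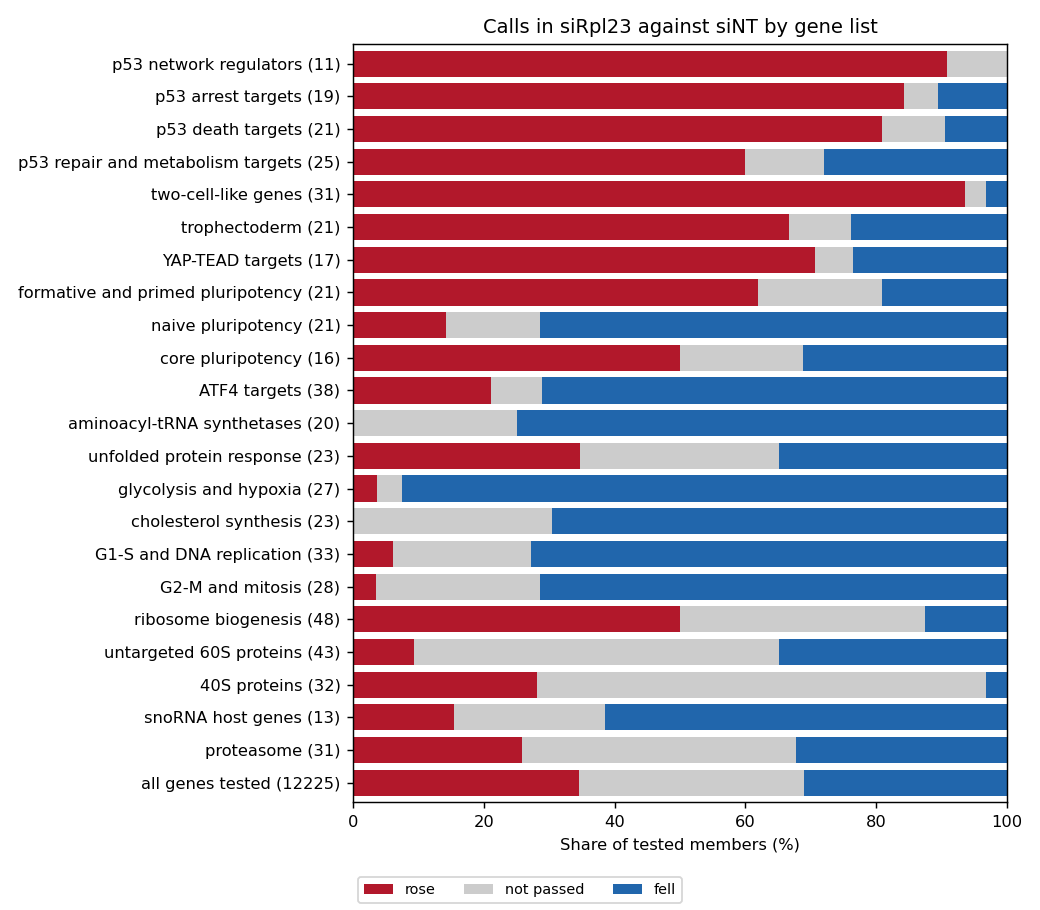
Share of the measured members of 22 gene lists, and of all 12225 genes, that rose (red), fell (blue) or did not pass (grey) in siRpl23 against siNT; numbers in brackets are members measured. The 10 of 11 p53 network regulators and 29 of 31 2-cell-like genes that rose stand beside 34.6% of all genes, and the 25 of 27 glycolysis and hypoxia genes that fell beside 31.1% of all genes. Of the 31 2-cell-like genes 8 had entered through the siRpl23 libraries.

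Targets of ATF4, the transcription factor of the amino acid response, fell in 27 of 38 measured cases and rose in 8 (median -0.62, and -0.63 in the third libraries). Phgdh had 34.4, 39.5 and 37.3 FPKM in siRpl23, against 132, 145 and 139 FPKM in siNT (log2 difference -1.88 ± 0.07, adjusted p = 1.32e-08). Asns, asparagine synthetase, had 113, 125 and 104 FPKM in siRpl23, against 269, 276 and 198 FPKM in siNT (log2 difference -1.19 ± 0.06, adjusted p = 1.57e-07). Atf4 itself differed little, with 171, 171 and 149 FPKM in siRpl23 and 191, 194 and 142 FPKM in siNT (log2 difference -0.17 ± 0.04, adjusted p = 0.00386), a call lost with all 15 libraries (-0.09, adjusted p = 0.146). The falls included enzymes of serine, asparagine and proline synthesis, and Pck2 had 3.39, 3.88 and 3.103 FPKM in siRpl23 and 14.8, 14.8 and 12.7 FPKM in siNT. Of the 8 that rose, Ddit4, an inhibitor of mTORC1 that p53 also induces, had 325, 317 and 295 FPKM in siRpl23 and 109, 99.9 and 82.04 FPKM in siNT (1.61). Aminoacyl-tRNA synthetases, which charge tRNAs, fell in 15 of 20 cases and rose in 0 (median -0.50). Sars had 43.1, 48.3 and 44.4 FPKM in siRpl23 and 108, 110.1 and 98.6 FPKM in siNT, Nars had 91.99, 100.2 and 81.3 FPKM in siRpl23 and 191, 203 and 154 FPKM in siNT and Yars had 37.3, 37.5 and 35.04 FPKM in siRpl23 and 77.2, 73.4 and 69.7 FPKM in siNT. Their siRpl23 and siNT libraries did not overlap, with differences of -1.24, -1.03 and -0.99.

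The motif TTGCATCA, the core of the composite element bound by ATF4 with C/EBP factors, was searched in the same windows on both strands, so that its reverse complement TGATGCAA also counted. It stood in 67 of the 9590 windows (0.699%), of whose genes 20 rose and 30 fell. Among ATF4 targets it was found in 8 of 33 windows (24.2%); 6 of these genes fell (Chac1, Herpud1, Jdp2, Nupr1, Pycr1 and Vldlr), Atf3 rose and Slc7a11 did not pass. Among aminoacyl-tRNA synthetases it was found in 4 of 12 windows (33.3%), those of Aars, Iars, Tars and Yars, and all 4 genes fell. Whether or not the motif was present, 27 of 38 ATF4 targets and 15 of 20 synthetases fell. The list of ATF4 targets was drawn up from known targets, for which such an element has often been described. The 250 bases before the start are shown for 3 of the strongest falls, Chac1 (chr2:119350992-119351241, plus strand), Nupr1 (chr7:126625471-126625720, minus strand) and Pycr1 (chr11:120643749-120643998, minus strand), and for Aars (chr8:111033592-111033841, plus strand); capitals mark the motif, which reads TGATGCAA in Pycr1.
Chac1: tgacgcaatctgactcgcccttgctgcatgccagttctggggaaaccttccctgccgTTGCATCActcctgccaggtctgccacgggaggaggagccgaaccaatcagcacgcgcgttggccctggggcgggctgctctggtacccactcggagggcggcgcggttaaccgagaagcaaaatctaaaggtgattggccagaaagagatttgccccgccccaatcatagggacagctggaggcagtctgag
Nupr1: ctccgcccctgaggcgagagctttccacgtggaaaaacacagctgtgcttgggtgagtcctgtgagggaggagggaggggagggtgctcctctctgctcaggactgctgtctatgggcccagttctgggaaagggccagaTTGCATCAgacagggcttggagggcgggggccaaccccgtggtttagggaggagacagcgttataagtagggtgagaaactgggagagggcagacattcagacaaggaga
Pycr1: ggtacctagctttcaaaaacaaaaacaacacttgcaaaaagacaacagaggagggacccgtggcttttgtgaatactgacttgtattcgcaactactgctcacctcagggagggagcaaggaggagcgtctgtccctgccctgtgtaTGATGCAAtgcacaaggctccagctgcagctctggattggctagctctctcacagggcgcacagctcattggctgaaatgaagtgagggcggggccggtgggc
Aars: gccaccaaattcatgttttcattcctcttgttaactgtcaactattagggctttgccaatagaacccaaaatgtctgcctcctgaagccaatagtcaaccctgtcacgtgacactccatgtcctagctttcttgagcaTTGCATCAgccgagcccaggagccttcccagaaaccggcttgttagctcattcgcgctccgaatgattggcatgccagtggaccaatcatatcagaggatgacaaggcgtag
The motif lay 193 bases before the start in Chac1, 110 in Nupr1, 103 in Pycr1 and 112 in Aars, counted to its first base on the strand of the gene.

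The unfolded protein response of the endoplasmic reticulum, another stress program, was split, with 8 of 23 measured genes up and 8 down (median -0.02). Hspa5, the chaperone BiP, had 189, 198 and 163 FPKM in siRpl23 and 216, 223 and 206 FPKM in siNT (log2 difference -0.18 ± 0.04, adjusted p = 0.00507). Hsp90b1 and the transcription factor Xbp1 fell (-0.63 and -0.62), and the lectin chaperone Canx rose (0.55).

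Genes of glycolysis and hypoxia fell in 25 of 27 measured cases and rose in 1 (median -0.67, and -0.70 in the third libraries). Bnip3, a mitophagy receptor induced by hypoxia, had 49.5, 64.4 and 60.3 FPKM in siRpl23, against 170.2, 164 and 161 FPKM in siNT (log2 difference -1.55 ± 0.12, adjusted p = 2.63e-06). Pfkp, a phosphofructokinase, had 59.6, 69.5 and 55.7 FPKM in siRpl23, against 206, 206 and 181 FPKM in siNT (log2 difference -1.66 ± 0.09, adjusted p = 2.14e-07). Vegfa and Pfkp were the members with the largest falls, and Ddit4 was the member that rose. Genes of cholesterol synthesis and its control fell in 16 of 23 measured cases and rose in 0 (median -0.39). Insig1, a regulator of cholesterol sensing, had 21.7, 22.4 and 18.9 FPKM in siRpl23 and 47.6, 50.8 and 41.7 FPKM in siNT, and Dhcr7, an enzyme at the end of cholesterol synthesis, had 16.7, 16.6 and 11.6 FPKM in siRpl23 and 35.4, 30.1 and 22.3 FPKM in siNT (-1.12 and -0.93). Of 9 measured interferon response genes 6 fell and 2 rose. Oas1a, a sensor of double-stranded RNA, had 2.18, 1.74 and 2.600 FPKM in siRpl23 and 5.95, 7.03 and 9.703 FPKM in siNT, and Bst2, a membrane protein that tethers virus particles, had 43.02, 46.9 and 49.2 FPKM in siRpl23 and 79.8, 82.5 and 72.8 FPKM in siNT. Lysosomal genes ran both ways (9 up and 9 down of 21), with Ctsd, the protease cathepsin D, up by 0.75 and Gusb, beta-glucuronidase, down (-0.98).

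Genes of the cell cycle fell by small amounts. Of 33 measured genes of the G1-S transition and DNA replication 24 fell and 2 rose (median -0.34, and -0.44 in the third libraries). Mcm6, a subunit of the replicative helicase, had 98.2, 102 and 87.00 FPKM in siRpl23, against 138, 137 and 119 FPKM in siNT (log2 difference -0.45 ± 0.04, adjusted p = 3.60e-06). E2f2, a transcription factor of S phase entry, had 4.81, 4.31 and 4.05 FPKM in siRpl23 and 10.7, 11.6 and 7.34 FPKM in siNT, and E2f1 differed by -0.76. The 2 that rose were the D-type cyclins Ccnd2 (0.92) and Ccnd1 (0.23). Of 28 genes of G2-M and mitosis 20 fell and 1, Cdc20, rose (0.20), with a median of -0.22. Ccnb1, the mitotic cyclin B1, had 164, 166 and 163 FPKM in siRpl23 and 202, 212 and 213 FPKM in siNT (-0.32), and Aurkb, the kinase of the chromosomal passenger complex, had 22.1, 20.1 and 21.2 FPKM in siRpl23 and 36.98, 35.1 and 37.1 FPKM in siNT (-0.75). The siRpl23 libraries lay below the siNT libraries of their table for Mcm6, E2f2, Ccnb1 and Aurkb. In the Myc network, Mycn had 85.2, 86.2 and 106 FPKM in siRpl23 and 42.1, 39.7 and 48.9 FPKM in siNT and rose (1.05), whereas the difference in Myc was 0.07 and did not pass.

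The other ribosomal proteins showed no shared change of that size. Of 43 measured 60S proteins that no siRNA of the series targeted 15 fell and 4 rose, with a median of -0.09 in the first table and of 0.16 in the third libraries. Over all genes 31.1% fell and 34.6% rose. Rpl3, which lies close to the peptidyl transferase centre, had 768, 808 and 806 FPKM in siRpl23, against 1345, 1414 and 1380.4 FPKM in siNT (log2 difference -0.81 ± 0.06, adjusted p = 2.44e-06) and was the 60S member with the largest difference in the first table. Rpl5, a partner of Rpl11 in binding Mdm2, had 718, 741 and 714 FPKM in siRpl23 and 852, 881 and 764 FPKM in siNT (log2 difference -0.25 ± 0.08, adjusted p = 0.0227). Without any single siRpl23 or siNT library this difference was -0.27 to -0.22 and no longer passed, and under quantile normalization it was -0.05 (adjusted p = 0.458). Rpl23a, which is not a copy of Rpl23, had 1981, 2045 and 5603 FPKM in siRpl23 and 1614, 1732 and 3483 FPKM in siNT (log2 difference 0.27 ± 0.08, adjusted p = 0.0155), a call lost without siRpl23 replicate 2 (0.24) or siNT replicate 1 (0.22). Rpl22l1, a paralog of Rpl22, had 76.6, 52.3 and 345 FPKM in siRpl23 and 74.5, 72.4 and 488 FPKM in siNT and did not pass. The counts for 60S proteins depended on scaling and on single libraries. Quantile normalization gave 12 that rose and 13 that fell. Without siRpl23 replicate 1 the number that fell was 3, without siNT replicate 2 it was 4, and without siRpl23 replicate 2 or siNT replicate 1 none rose. All 15 libraries together gave 7 in each direction.

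Of 32 measured 40S proteins 9 rose and 1 fell (median 0.03, and 0.24 in the third libraries). Over all genes 34.6% rose and 31.1% fell, and with the replicate number as a block 7 of the 40S proteins fell. Rps15 had 2678, 2816 and 3713 FPKM in siRpl23 and 1845, 1969 and 2482 FPKM in siNT (0.53) and Rps19 had 2253, 2339 and 3036 FPKM in siRpl23 and 1738, 1880.1 and 2230.2 FPKM in siNT (0.34). Quantile normalization raised the count to 16 that rose, and it was 5 without siRpl23 replicate 2 or siNT replicate 1. Ribosomal proteins have many processed pseudogenes, so reads could be shared with these copies and the values are uncertain to that extent.

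Ribosome biogenesis factors rose in 24 of 48 cases and fell in 6 (median 0.13), but the median was -0.08 in the third libraries and all 15 libraries together gave 15 that rose and 10 that fell. Utp20, of the small-subunit processome, had 78.8, 76.3 and 73.5 FPKM in siRpl23, against 45.3, 43.3 and 45.1 FPKM in siNT (log2 difference 0.79 ± 0.04, adjusted p = 1.07e-07). Polr1a, the largest subunit of RNA polymerase I, had 55.3, 54.6 and 53.3 FPKM in siRpl23 and 36.8, 35.9 and 41.2 FPKM in siNT (0.58). Npm1, nucleophosmin, had 1733, 1626 and 2308 FPKM in siRpl23 and 1527, 1508 and 2198 FPKM in siNT (0.14), a call lost when any single siRpl23 or siNT library was left out. Host genes of small nucleolar RNAs fell in 8 of 13 measured cases and rose in 2 (median -0.33). Snhg11 had 4.02, 4.43 and 3.49 FPKM in siRpl23 and 13.6, 12.3 and 8.82 FPKM in siNT (-1.42), and Snhg8 had 29.4, 25.5 and 9.77 FPKM in siRpl23 and 57.8, 62.6 and 18.5 FPKM in siNT (-1.11). Gas5 had 27.7, 28.5 and 1.14 FPKM in siRpl23, against 41.96, 40.4 and 0.878 FPKM in siNT (log2 difference -0.54 ± 0.04, adjusted p = 1.77e-06), with the opposite sign in the third libraries, and the call was lost with all 15 libraries (adjusted p = 0.0819). Translation factors were mixed (9 of 27 up and 6 down), with Eif1, which selects start codons, up by 0.69 and Eif2s2, a subunit of eIF2, down (-0.78). Proteasome subunits were mixed too (8 of 31 up and 10 down, all under 0.6 in size), and the number that rose was 4 without siRpl23 replicate 1 and 5 without siRpl23 replicate 2 or siNT replicate 1. For both lists the shares over all genes were 34.6% up and 31.1% down.

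**Figure D4:**
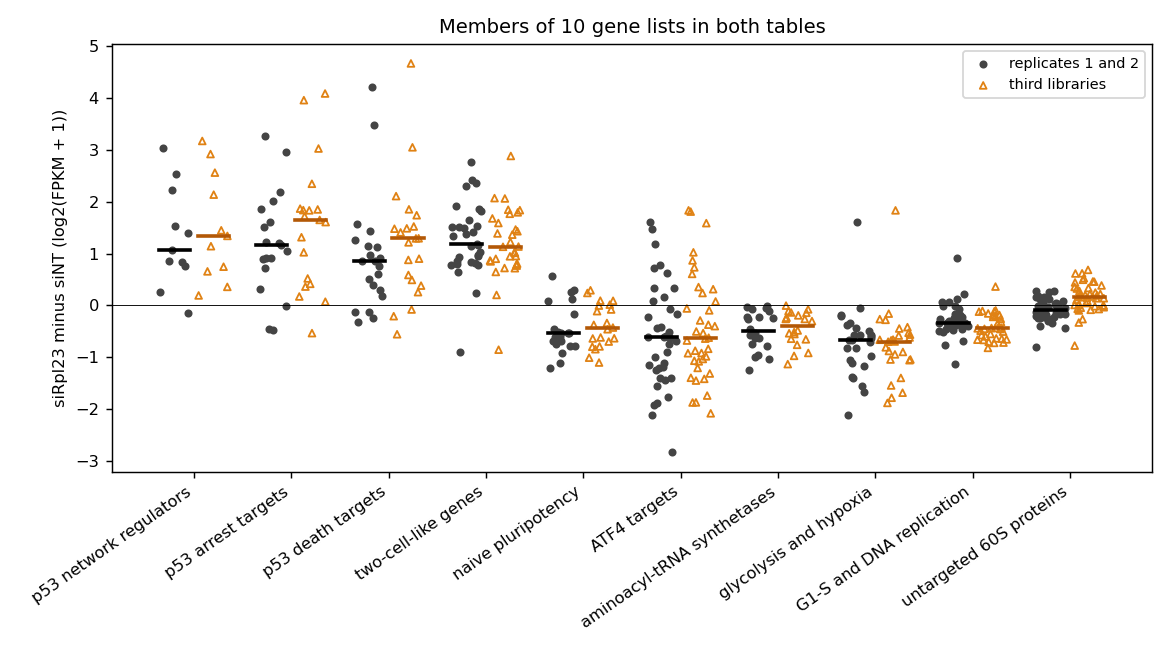
Difference between siRpl23 and siNT (log2(FPKM + 1)) of each measured member of 10 gene lists, in replicates 1 and 2 (filled circles) and in the third libraries (open triangles), with horizontal bars at the medians. The median is 1.08 and 1.34 for p53 network regulators, -0.62 and -0.63 for ATF4 targets, and -0.09 and 0.16 for untargeted 60S proteins.

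To show where transcript levels after Rpl23 knockdown differed, siRpl23 was set against the knockdowns of Rpl11, Rpl14 and Rpl18 without use of siNT. The siRNAs lowered their target transcripts to unlike degrees. Rpl11 had 168, 187 and 170.3 FPKM in siRpl11 and 702, 772 and 854 FPKM in siNT. Rpl14 had 605, 629 and 698 FPKM in siRpl14 and 1176, 1215 and 1811 FPKM in siNT. Rpl18 had 614, 670 and 905 FPKM in siRpl18 and 1866, 2067 and 2898 FPKM in siNT. The part of this in the differences was not tested. Against the mean of the 3, 2030 genes were higher (16.6%) and 334 lower (2.73%), among them 7 that were higher (0.0573%) and 3 that were lower (0.0245%) by 2-fold or more. Other scalings changed that balance to 1023 higher and 693 lower (quantile normalization) or 1222 and 1186 (median-ratio scaling), and without siRpl23 replicate 1 there were 776 and 111. Single knockdowns differed widely in these counts. Against siRpl11, 4959 genes were higher (40.6%) and 1760 lower (14.4%), of which 521 (4.26%) and 30 (0.245%) differed by 2-fold or more. Against siRpl18, 298 were higher (2.44%) and 119 lower (0.973%), with 1 (0.00818%) and 3 (0.0245%) of them past 2-fold. Against siRpl14, 51 were higher (0.417%) and 12 lower (0.0982%). Genes with an unadjusted limma p under 0.05 numbered 1755 against siRpl14 and 2500 against siRpl18. With n = 2 in each group, a gene that was not called may still differ. Against the mean of siRpl14 and siRpl18 only, 18 genes were higher and 4 lower.

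The p53 and 2-cell-like genes were compared in the same way. Trp53 had 324, 309 and 375 FPKM in siRpl23, 545, 539.7 and 602 FPKM in siRpl11, 306, 302 and 369 FPKM in siRpl14, 359, 359 and 412 FPKM in siRpl18 and 189, 182 and 223 FPKM in siNT. Its differences were -0.77 against siRpl11, 0.06 against siRpl14 and -0.18 against siRpl18, and those from siRpl11 and siRpl18 passed. Mdm2 had 362, 338 and 335 FPKM in siRpl23, 147, 139 and 134 FPKM in siRpl11, 277, 274 and 287 FPKM in siRpl14, 375, 370.1 and 337 FPKM in siRpl18 and 41.97, 41.2 and 36.3 FPKM in siNT. The differences of siRpl23 were 1.28 against siRpl11, 0.34 against siRpl14, both past the threshold, and -0.09 against siRpl18, which was not. Cdkn1a had 121, 109 and 136 FPKM in siRpl23, 52.1, 55.7 and 58.2 FPKM in siRpl11, 116, 113 and 133 FPKM in siRpl14, 126, 132 and 146 FPKM in siRpl18 and 52.5, 48.3 and 42.7 FPKM in siNT. Zscan4d had 55.7, 48.7 and 12.6 FPKM in siRpl23, 12.3, 11.1 and 2.305 FPKM in siRpl11, 55.7, 53.9 and 18.8 FPKM in siRpl14, 51.8, 44.96 and 10.2 FPKM in siRpl18 and 21.9, 23.9 and 4.82 FPKM in siNT. For Cdkn1a and Zscan4d the siRpl11 libraries lay below all siRpl23 libraries of their table, and the differences from siRpl14 and siRpl18 did not pass. Of the 31 measured 2-cell-like genes 30 were higher in siRpl23 than in siRpl11 and 0 lower (median 1.77), 0 were higher and 1 lower against siRpl14 (median 0.01), and 0 were higher and 2 lower against siRpl18 (median -0.12). Libraries of the other knockdowns did not count for the limit of 1 FPKM, which favours genes high in siRpl23. Of the 31 genes 8 had entered through the siRpl23 libraries, and these could hardly have been lower there than in siRpl11. Nupr1 had 6.27, 8.16 and 9.15 FPKM in siRpl23, 8.13, 9.19 and 11.3 FPKM in siRpl11, 6.66, 8.47 and 6.27 FPKM in siRpl14, 7.76, 9.495 and 7.58 FPKM in siRpl18 and 56.6, 57.6 and 41.9 FPKM in siNT, and none of its 3 differences between knockdowns passed.

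The largest differences from the mean of the other knockdowns, by the rule used above, included genes in which siRpl11 lay farthest from siRpl23. Sct, the gut hormone secretin, had 28.3, 26.3 and 32.7 FPKM in siRpl23, 2.03, 2.24 and 2.18 FPKM in siRpl11, 29.6, 33.5 and 45.9 FPKM in siRpl14, 16.1, 19.4 and 17.2 FPKM in siRpl18 and 1.598, 2.29 and 0.829 FPKM in siNT (1.19 against the mean of the 3). Cldn4, a tight junction protein, had 68.4, 64.1 and 104 FPKM in siRpl23, 12.9, 12.2 and 19.99 FPKM in siRpl11, 55.3, 56.98 and 88.3 FPKM in siRpl14, 36.5, 36.97 and 59.7 FPKM in siRpl18 and 54.5, 48.4 and 63.8 FPKM in siNT (1.13). Krt8 had 20.9, 19.8 and 28.3 FPKM in siRpl23, 2.14, 2.85 and 4.02 FPKM in siRpl11, 24.2, 25.02 and 35.2 FPKM in siRpl14, 10.1, 11.3 and 14.6 FPKM in siRpl18 and 4.402, 5.46 and 5.603 FPKM in siNT (1.08). Sct and Krt8 were at least as high in siRpl14 as in siRpl23. On the lower side, Pim2, a survival kinase, had 26.00, 23.9 and 22.7 FPKM in siRpl23, 105, 105 and 107 FPKM in siRpl11, 26.6, 28.2 and 32.5 FPKM in siRpl14, 21.4, 23.5 and 19.7 FPKM in siRpl18 and 10.7, 10.3 and 11.4 FPKM in siNT (-0.67).

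Few genes set siRpl23 apart from each of the other knockdowns. The genes called in the same direction against all 3 numbered 8, namely Rpl23 and Gm11423, which were lower, and 2210417A02Rik, Igf2, Klf10, Mt2, Mt4 and Twsg1, which were higher. Rpl23 had 412, 436 and 320.1 FPKM in siRpl23, 1499, 1604 and 1269 FPKM in siRpl11, 1265, 1369 and 1230.5 FPKM in siRpl14, 1266, 1417 and 1188 FPKM in siRpl18 and 1126, 1211 and 1028 FPKM in siNT. Igf2, an insulin-like growth factor, had 9.62, 9.27 and 9.35 FPKM in siRpl23, 2.45, 2.27 and 2.504 FPKM in siRpl11, 6.69, 6.39 and 6.37 FPKM in siRpl14, 7.198, 7.100 and 7.21 FPKM in siRpl18 and 1.63, 1.899 and 2.73 FPKM in siNT, so that the siRpl23 libraries stood above all others in both tables. Its differences were 1.64 against siRpl11, 0.47 against siRpl14 and 0.36 against siRpl18. Twsg1, which binds bone morphogenetic proteins, had 40.3, 41.99 and 40.9 FPKM in siRpl23, 16.7, 17.1 and 14.95 FPKM in siRpl11, 30.9, 31.1 and 33.4 FPKM in siRpl14, 31.98, 30.1 and 33.7 FPKM in siRpl18 and 21.8, 20.6 and 17.3 FPKM in siNT. Its differences from siRpl14 and siRpl18 were both near 0.40, and siRpl23 was again the highest group. Mt2, a metallothionein, had 801, 863 and 1635 FPKM in siRpl23, 459, 462 and 1076 FPKM in siRpl11, 629, 626 and 1199 FPKM in siRpl14, 694, 671 and 1248 FPKM in siRpl18 and 1069, 1121 and 1861 FPKM in siNT. Here siRpl23 was the highest knockdown yet lay below siNT. Klf10, a transcription factor induced by TGF-beta, had 57.1, 56.9 and 36.7 FPKM in siRpl23, 53.4, 52.3 and 37.1 FPKM in siRpl11, 46.2, 45.5 and 29.8 FPKM in siRpl14, 39.05, 40.5 and 23.96 FPKM in siRpl18 and 38.6, 40.2 and 28.6 FPKM in siNT. The difference in Klf10 between siRpl23 and siRpl11 was -0.01 in the third libraries. Mt4, 2210417A02Rik and Gm11423 were at or under 2.72 FPKM in all libraries of siRpl23. The differences of Mt4 from siRpl18 and of Gm11423 from siRpl14 had the opposite sign in the third libraries (-1.08 and 0.23). Against siRpl14, 1 gene was higher by 2-fold or more (0.00818%), Rpl14 (1.04), and 1 was lower by as much (0.00818%), Rpl23 (-1.63).

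**Figure D5:**
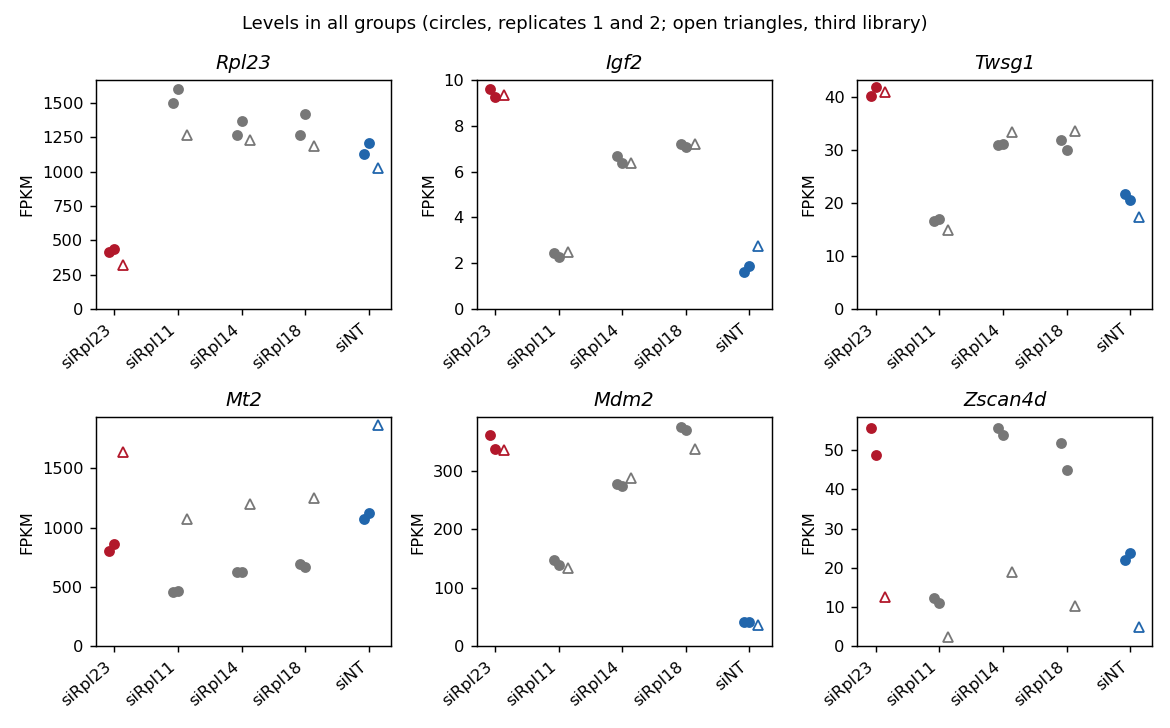
FPKM of Rpl23, Igf2, Twsg1, Mt2, Mdm2 and Zscan4d in siRpl23 (red), the other knockdowns (grey) and siNT (blue); filled circles are replicates 1 and 2 and open triangles the third library from the other table. Igf2 stands at 9.27 to 9.62 FPKM in siRpl23 and at most 7.21 FPKM elsewhere, while Mdm2 and Zscan4d in siRpl23 stand near siRpl14 and siRpl18 and above siRpl11 and siNT.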

How the data were processed

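RNA from 15 libraries of E14 cells was sequenced with a stranded mRNA kit, per the labels' protocols. The authors aligned the reads with STAR to mm9 and computed normalized FPKM with Cuffnorm, per the submitters' processing notes; no versions are given there. The authors' deposited FPKM values stand in 2 tables that were normalized separately, replicates 1 and 2 in the first and the third libraries in the second. Of the columns in the first table, 2 match no sample and were not used. The depth of each library is known only in relative terms, from the steps of low FPKM values, so no counting interval can be given.

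The values were taken as log2(FPKM + 1) for the 12225 genes with at least 1 FPKM in at least 2 of the 6 libraries of siRpl23 and siNT. The test was limma 3.58.1 in R 4.3.3 on the 10 libraries of the first table, with 5 residual degrees of freedom, contrasts of siRpl23 with siNT, with each other knockdown and with the mean of these 3, and Benjamini-Hochberg adjustment over all 12225 genes at 0.05. The third libraries entered no test but that with all 15 libraries and are given beside the first table. Each library is given by its own value, since a group has 2 libraries in the first table and 1 in the second. Comparisons that share siNT or siRpl23 libraries are not independent.

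The members and 39 gene lists were chosen with earlier results of these data known. Named genes were a set of anchor genes, the 12 largest called rises and falls with a mean of at least 5 FPKM in either group and the same sign in the third libraries (leaving out symbols that begin with Gm and a digit or end in Rik), up to 4 called members per list by size, and the 6 largest differences each way from the mean of the other knockdowns. Alternatives were another pseudocount, other filters, quantile and median-ratio scaling, the replicate number as a block, the groups compared alone, all 15 libraries with the table as a term, and each siRpl23 or siNT library of the first table left out. No library of the other knockdowns was left out. Promoter windows came from RefSeq (GRCm38.p6) and were matched by symbol. Some genes that the rule names are not reported here.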

Additional observations from a re-analysis of the deposited data

Results flagged for a closer look

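The genes given here were taken by the size of their difference between siRpl23 and the mean of siRpl11, siRpl14 and siRpl18, each of which passed limma's test of that difference (Benjamini-Hochberg adjusted p under 0.05). Higher in siRpl23 were Sct (1.19), Cldn4 (1.13), Rgs14 (1.10), Kbtbd11 (1.09), Krt8 (1.08) and Sfn (1.07). Lower were Rpl23 (-1.72), Napsa (-0.67), Pim2 (-0.67), Fgf15 (-0.63) and Glod5 (-0.59). Kbtbd11 had 31.4, 29.6 and 40.9 FPKM in siRpl23, 4.86, 4.23 and 6.34 FPKM in siRpl11, 17.2, 17.3 and 22.7 FPKM in siRpl14, 31.6, 30.4 and 39.2 FPKM in siRpl18 and 5.804, 5.07 and 6.21 FPKM in siNT. Napsa had 10.02, 10.6 and 15.5 FPKM in siRpl23, 23.8, 27.01 and 31.7 FPKM in siRpl11, 10.7, 10.7 and 18.1 FPKM in siRpl14, 17.5, 18.3 and 29.5 FPKM in siRpl18 and 11.2, 10.1 and 27.9 FPKM in siNT. For Kbtbd11 the knockdowns of Rpl23 and Rpl18 stood together, and for Napsa those of Rpl23 and Rpl14.

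The genes called against each single knockdown differed from siRpl14, the nearest group by number of calls, by 0.52 (2210417A02Rik), -0.81 (Gm11423), 0.47 (Igf2), 0.31 (Klf10), 0.40 (Mt2), 0.74 (Mt4), -1.63 (Rpl23) and 0.40 (Twsg1). In the third libraries the same differences were 0.90, 0.23, 0.49, 0.29, 0.45, 0.03, -1.94 and 0.29, so Gm11423 had the opposite sign there and Mt4 was near 0. Groups of 3 libraries were too small for a test of single outlying libraries.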

How the results depend on the processing

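The direction of the Rpl23 difference and its call held under every setting, from -1.51 to -1.41 with single libraries left out and -1.33 under quantile normalization. With single libraries of siRpl23 or siNT left out, 7037 to 7200 genes were called, of which 3665 to 3911 rose and 3196 to 3431 fell, and 848 to 936 were called at 2-fold or more, of which 587 to 659 rose and 242 to 289 fell. A pseudocount of 0.1 gave 1532 calls at 2-fold or more, with 619 that fell. A limit of 5 FPKM on the mean left 8351 genes and 468 such calls, 323 up and 145 down. For siRpl23 against the mean of the other 3, the leave-outs gave 887 to 2342 calls, 776 to 2016 higher and 108 to 326 lower. They were fewest without siRpl23 replicate 1 (887) and replicate 2 (1199). Quantile normalization gave 1023 higher and 693 lower, and median-ratio scaling 1222 and 1186. With siRpl14 and siRpl18 alone as the other knockdowns, an alternative chosen after seeing the data, 22 genes were called, 18 higher and 4 lower. The cause of these shifts was not tested. The rises made up 46.6% of all calls against siNT under quantile normalization and 52.7% without it, while the median over all genes moved by less than 0.1 under each scaling.

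Same-numbered libraries deviated together only in part, with correlations of 0.0025 to 0.238 for replicate 1, so the numbers were not taken as pairs. With the replicate number as a block 8533 genes were called against siNT, and the Rpl23 difference stayed at -1.46 (limma, adjusted p = 3.38e-09). Against the mean of the other knockdowns 3200 genes were then called, 2582 higher and 618 lower, in place of 2030 and 334. Among the 40S proteins 7 fell in place of 1.

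Of 179 named genes 166 kept their direction and side of the threshold in every setting in which they were measured, the limit of 5 FPKM having covered 153 of the 179. With single libraries left out, differences close to 0 ranged over both signs: from -0.0491 (without siNT replicate 1) to 0.0981 in Rpl18, with -0.0413 without siRpl23 replicate 2, from -0.481 to 0.0595 (without siRpl23 replicate 2) in Rpl22l1, from -0.0184 (without siNT replicate 1) to 0.119 in Rpl11, and from -0.106 to 0.0202 (without siNT replicate 1) in Napsa. The fit on the compared groups alone gives no difference from the other knockdowns. With 2 libraries per group in a table, the third libraries are the one check outside the fit, and unknown depth limits what can be said of genes near 1 FPKM.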

Other observations

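Some smaller lists had not yet been described. Of 5 measured mesoderm and primitive streak genes 3 rose and 0 fell, 2 of the 5, Wnt3 and Hand1, having entered through the siRpl23 libraries. Of the 3 that passed the limit in siNT alone 1 rose. Mesp2, a transcription factor of early mesoderm, had 5.96, 6.72 and 7.96 FPKM in siRpl23 and 2.36, 1.92 and 0.755 FPKM in siNT (1.23), and Wnt3 and Hand1 were the others that rose. Without a limit on low values 7 rose and 2 fell, and with a limit of 5 FPKM on the mean none rose. Germline and meiosis genes rose in 5 of 22 measured cases and fell in 9, with a median of -0.15. Taf7l, a germ cell relative of a general transcription factor subunit, had 10.8, 8.45 and 10.1 FPKM in siRpl23 and 1.76, 1.47 and 1.25 FPKM in siNT (2.02), and Hormad1, a protein of the meiotic chromosome axis, had 4.600, 4.53 and 21.9 FPKM in siRpl23 and 1.63, 1.31 and 7.61 FPKM in siNT (1.17). Stra8 and Tuba3a, given above, had the largest falls of this list.

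Among Pim kinases and Gadd45 genes 3 of 6 rose and 3 fell. Gadd45g, a stress-induced growth regulator, had 23.8, 21.7 and 28.2 FPKM in siRpl23 and 1.32, 1.47 and 1.16 FPKM in siNT (log2 difference 3.31 ± 0.06, adjusted p = 4.32e-10), and Gadd45b fell (-0.74). Pim2 rose (1.18) and Pim3 fell (-0.50), both survival kinases. The groups did not overlap for Gadd45g in either table. In the Myc network 4 of 11 measured genes rose and 4 fell. Mxd4, a partner of Max that represses Myc targets, had 10.03, 9.69 and 12.4 FPKM in siRpl23 and 2.34, 2.92 and 1.77 FPKM in siNT (1.59), and Mxi1, another such partner, fell (-0.77).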
